A study of Homo sapiens with 18 samples.

Results

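The levels of 10 genes of the splicing machinery were followed in cultured human lung cells exposed to wood smoke: the SR proteins SRSF2, SRSF3, SRSF5, SRSF6, SRSF7 and SRSF11, the SR-like proteins TRA2A and TRA2B, and the kinases CLK1 and CLK4. The 10 genes were taken by name, each matched to a single identifier among the 62649 gene identifiers counted in every library, by a rule that uses names and no measured value. The names themselves were chosen with earlier results of these data known. RNA from A549 cells, a line from a lung carcinoma labelled as alveolar epithelial, and from BEAS-2B cells, an immortalised bronchial epithelial line, was sequenced after an exposure of 4 h at the air-liquid interface, in which aerosol passes over cells that are fed from below through a membrane. Each line, wild type by its labels, was given clean air, complete wood smoke or smoke that had been filtered, and each of these 6 groups had 3 libraries (18 libraries altogether). All groups, clean air included, were seeded 24 h ahead on 24 mm inserts (400000 A549 or 500000 BEAS-2B cells) and held at a flow of 100 mL/min and 85% relative humidity over HEPES-supplemented RPMI medium. The question named in the series title is how far gas-phase carbonyl compounds account for the toxicity. Each line is a single cultured line and stands for no donor, and A549 cells held less than 1 CPM (counts of a gene per M counts in all genes of its library) of the surfactant genes SFTPC, SFTPB, SFTPA1 and SFTPA2, which define alveolar type II cells, in all 9 libraries. NAPSA, the other type II marker examined, was not under 1 CPM in every A549 library. The 5 markers summed to 1.70 to 2.36 CPM there with clean air, 0.747 to 1.32 with complete and 1.16 to 1.81 CPM with filtered smoke. In BEAS-2B cells all 5 stayed under 1 CPM.

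SR proteins carry an RNA-binding domain and a tail rich in arginine and serine repeats, bind exonic enhancers in pre-mRNA and help the spliceosome choose splice sites. CLK kinases phosphorylate that tail in the nucleus and release SR proteins from nuclear speckles, so kinase and substrate levels act together on splicing. Most genes of this family also regulate themselves by splicing: a "poison" exon or a retained intron yields transcripts that are destroyed by nonsense-mediated decay or kept in the nucleus, and CLK1 transcripts with retained introns are known to be held in the nucleus and spliced on stress.

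Gene counts summed to 14.4 to 21.4 M per library in A549 cells and 28.5 to 55.0 M in BEAS-2B cells, and the lowest count of any of the 10 genes in any library was 180 (CLK4 in filtered smoke library 1 of A549 cells). All 5 epithelial markers (EPCAM, KRT8, KRT18, KRT7, CDH1) were detected in both lines, and all 3 leukocyte and all 3 endothelial markers stayed under 1 CPM in every library, with the summed leukocyte markers at 0 to 0.229 CPM. Markers of the lines moved with exposure, and not all one way. In BEAS-2B cells the epithelial keratin KRT18 rose by a log2 change of 1.31 with complete and 1.35 with filtered smoke, KRT7 rose with filtered smoke (1.51; 1.38 with complete smoke did not pass), and the adhesion gene CDH1 fell (-1.29 and -1.37). In A549 cells EPCAM rose with both smokes (0.54 and 0.59) and KRT18 (1.03), KRT8 (0.77) and KRT7 (0.82) with filtered smoke. Summed basal cell markers (KRT5, KRT14, TP63) were 155 to 180 CPM with clean air, 101 to 130 with complete and 110 to 148 CPM with filtered smoke in BEAS-2B cells, where TP63 fell (-1.46 and -1.70), KRT14 rose (0.84 and 0.93) and KRT5 did not pass (0.03 and 0.25). They were 17.0 to 22.7, 5.09 to 9.42 and 5.05 to 12.1 CPM in A549 cells, where TP63 fell (-1.27 and -1.14) and the others stayed under 1 CPM. The part of these shifts in the results below was not tested. Libraries of BEAS-2B cells were uneven: in complete smoke library 3, 45.6% of reads were not assigned to a single gene, against 18.9% to 28.1% in the other 8, and clean air library 1 stood apart from the other clean air libraries in several of the genes described here. Scaling factors (TMM, trimmed mean of M values) ran from 0.718 to 1.52 in BEAS-2B cells and from 0.916 to 1.09 in A549 cells. With library size alone in place of TMM the median log2 change of all genes moved to -0.75 (complete) and -0.74 (filtered) in BEAS-2B cells and to -0.10 and -0.15 in A549 cells, so directions are stated relative to the bulk of genes. The share of passing genes that were higher then moved from 52.5% and 48.7% to 18.3% with each smoke in BEAS-2B cells, and from 47.9% and 49.55% to 34.7% and 37.9% in A549 cells.

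Upstream sequences are shown first for SRSF7, which rose in both lines, SRSF5 and CLK1, which rose in A549 cells, and CLK4, which encodes a kinase similar to CLK1 and fell in BEAS-2B cells. The choice of these 4 was made after their values were seen. RefSeq promoter windows (GRCh38.p14, 250 bases before to 50 after a start) were found for 8 of the 10 genes, 11 windows in all, and the 250 bases before the start are printed for 1 window of each of the 4. SRSF5 lies at chr14:69766892-69767141 on the plus strand, SRSF7 at chr2:38751495-38751744, CLK1 at chr2:200864659-200864908 and CLK4 at chr5:178627051-178627300, these 3 on the minus strand. Each reads 5′ to 3′ along its gene, and capitals mark TGACG or its reverse complement CGTCA, the half-site of the cAMP response element.
SRSF5: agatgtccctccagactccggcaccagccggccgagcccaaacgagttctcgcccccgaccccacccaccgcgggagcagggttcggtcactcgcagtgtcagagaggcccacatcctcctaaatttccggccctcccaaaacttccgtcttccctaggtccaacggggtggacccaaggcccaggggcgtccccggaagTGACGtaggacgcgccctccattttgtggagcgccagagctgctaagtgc
SRSF7: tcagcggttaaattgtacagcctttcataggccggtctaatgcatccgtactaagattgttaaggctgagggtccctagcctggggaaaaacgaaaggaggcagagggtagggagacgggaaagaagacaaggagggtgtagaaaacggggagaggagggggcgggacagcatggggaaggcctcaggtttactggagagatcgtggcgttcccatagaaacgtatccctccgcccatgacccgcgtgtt
CLK1: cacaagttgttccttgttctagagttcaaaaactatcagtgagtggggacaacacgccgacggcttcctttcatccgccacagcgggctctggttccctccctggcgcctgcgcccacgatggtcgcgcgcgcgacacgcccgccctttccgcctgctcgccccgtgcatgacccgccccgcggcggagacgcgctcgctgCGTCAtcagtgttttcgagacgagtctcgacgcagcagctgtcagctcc
CLK4: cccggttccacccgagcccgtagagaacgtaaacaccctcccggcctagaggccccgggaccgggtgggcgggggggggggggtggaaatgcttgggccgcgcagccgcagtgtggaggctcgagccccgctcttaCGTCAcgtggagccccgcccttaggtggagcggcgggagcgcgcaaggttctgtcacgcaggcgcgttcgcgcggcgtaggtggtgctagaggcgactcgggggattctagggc
TGACG was present on either strand in 9 of the 11 windows, which belong to 7 genes (CLK1, CLK4, SRSF11, SRSF3, SRSF5, SRSF7 and TRA2B), and in 24.6% of the 35116 RefSeq windows of the same length. The SRSF7 window printed above holds none, and the match of that gene lies in its second window, which starts further into the gene and also holds TATAAA. CLK1 has 2 overlapping windows that share their match, so windows of a gene are not independent. The full element TGACGTCA, the AP-1 site TGANTCA and the paired heat shock units GAANNTTC and TTCNNGAA were in none of the 11 windows, against 1.85%, 7.71%, 6.77% and 7.74% of all windows. CCAAT was in 1 window (SRSF3) against 34.6% of all, CCGGAAG in 1 (SRSF5) against 10.3%, CACGTG in 1 (CLK4) against 7.26%, and TATAAA in 3 (SRSF3, SRSF7 and SRSF11) against 11.5%. The GC content of the 11 windows ran from 53.7% to 70.7%. The 35116 windows were not matched to them for GC content, so the shares are not read as an enrichment. TGACGTCA contains TGACG, each motif was searched on both strands, and a match is a description of these letters and not a site shown to be bound.

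With clean air, SRSF2 was the most abundant of the genes per length of annotated exons in both lines. Its level was 123 CPM per kb in A549 cells (range 116 to 130) and 153 in BEAS-2B cells (149 to 158). SRSF3 followed at 50.7 CPM per kb in A549 cells, where the ranges of SRSF3, SRSF6 (44.6), SRSF7 (42.1) and TRA2A (36.9) each overlapped that of the next, and at 81.3 CPM per kb in BEAS-2B cells, where it stood clear of SRSF7 (48.2). The kinases had the lowest means: CLK1 held 11.5 and 14.8 CPM per kb and CLK4 3.04 and 3.12 CPM per kb in A549 and BEAS-2B cells. The means of SRSF11 (14.7 and 20.0) and TRA2B (19.3 and 25.9 CPM per kb) lay between the kinases and the other SR proteins. In BEAS-2B cells the range of SRSF11 (14.3 to 22.9 CPM per kb) overlapped that of CLK1 (14.3 to 15.6). After smoke SRSF7 took the second place in all 4 exposed groups, at 80.0 CPM per kb (complete) and 93.6 (filtered) in A549 cells and at 138 and 129 CPM per kb in BEAS-2B cells, and SRSF2 kept the first. The range of SRSF7 overlapped that of the next gene with complete smoke in A549 cells (68.9 to 93.3 against 63.8 to 70.3 CPM per kb for SRSF5) and in no other exposed group. CLK4 stayed last in all 6 groups. Counts were scaled within each line, so levels of the lines are given side by side without a test.

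**Figure D1:**
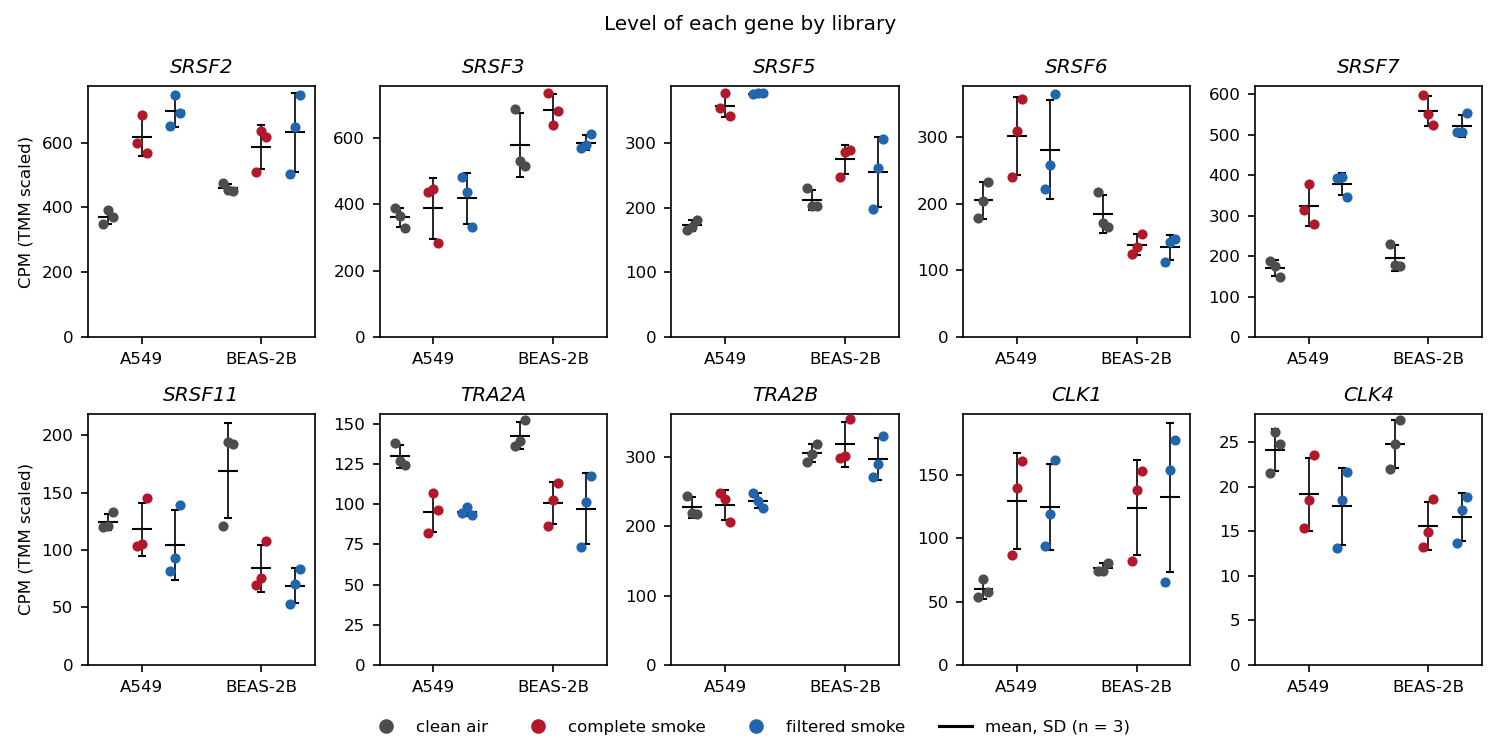
Level of each of the 10 genes in the 18 libraries, in CPM after TMM scaling within a line (linear axis from 0). Points are libraries, from left to right clean air (grey), complete (red) and filtered smoke (blue) for each line, with the group mean and SD (n = 3). SRSF7 in exposed BEAS-2B cells sits between 506 and 598 CPM against 175 to 231 CPM with clean air, and SRSF5 in exposed A549 cells between 342 and 377 CPM against 166 to 182 CPM.

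In A549 cells 4 of the 10 genes rose with complete smoke (SRSF2, SRSF5, SRSF7 and CLK1) and 1 fell (TRA2A), by edgeR's quasi-likelihood test at a Benjamini-Hochberg adjusted p under 0.05, the threshold for passing throughout. Filtered smoke gave the same split, and with the same genes. Of all 15244 genes tested in this line, 32.5% passed with complete smoke (15.6% higher and 16.9% lower) and 46.7% with filtered smoke (23.1% higher and 23.5% lower). In BEAS-2B cells 1 of the 10 rose with each smoke (SRSF7) and 2 fell (SRSF11 and CLK4), where 41.0% of 16356 genes passed with complete smoke (21.5% higher, 19.5% lower) and 48.6% with filtered smoke (23.6% higher, 24.9% lower). With the library number as a block, 7 of the 10 passed with each smoke in A549 cells (54.6% and 61.7% of all genes) and 7 with filtered smoke in BEAS-2B cells (66.9%), the comparisons in which the numbers were taken as pairs. The labels do not state a pairing, and in BEAS-2B cells the numbers matched the libraries only in part. The exposed and clean air groups did not overlap for 6 of the 10 genes with complete and 5 with filtered smoke in A549 cells, against 52.5% and 57.5% of all genes, and for 8 and 6 of the 10 in BEAS-2B cells, against 48.8% and 61.4%. The median log2 change of the 10 genes was 0.33 with both smokes in A549 cells, beside 0.02 and 0.01 over all genes tested, and 0.15 and -0.01 in BEAS-2B cells, beside -0.06 and -0.07. Shares that passed were thus of the order of the background, and the members differed among themselves in direction. The 2 exposed groups of a line share their clean air libraries, so their values are given side by side. Nothing in the labels says whether the 3 libraries of a group came from separate cultures, and the p-values cover only how these libraries vary, which may be technical.

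**Figure D2:**
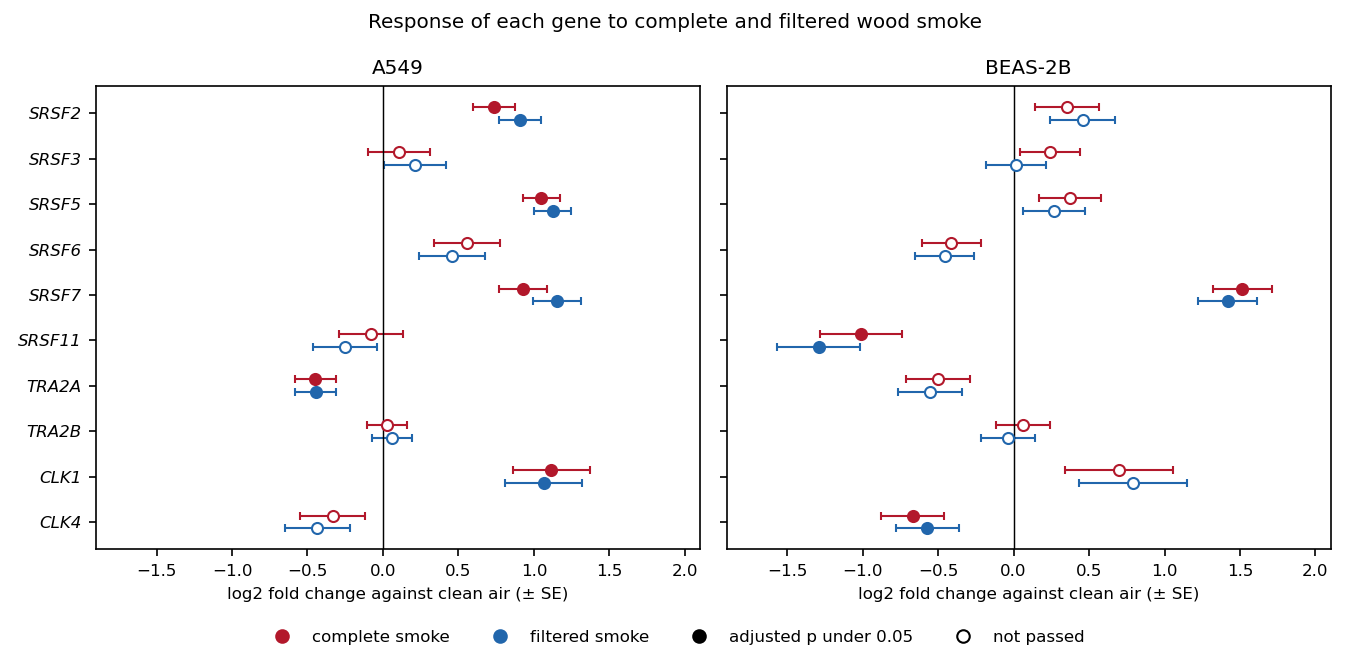
Log2 fold change of each gene against clean air (± SE) in A549 (left) and BEAS-2B cells (right), for complete (red) and filtered smoke (blue). Filled points passed at an adjusted p under 0.05. SRSF7 passed in all 4 comparisons, from 0.93 to 1.52, and TRA2B lay between -0.04 and 0.06.

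SRSF7, an SR protein with a zinc knuckle that also promotes mRNA export, rose in both lines with both smokes. In BEAS-2B cells it held 231, 179 and 175 CPM with clean air, 598, 550 and 525 CPM with complete smoke and 506, 507 and 552 CPM with filtered smoke. The lowest exposed library was more than double the highest clean air library. Log2 fold changes were 1.52 ± 0.20 with complete (adjusted p = 0.00195) and 1.42 ± 0.20 with filtered smoke (adjusted p = 0.00247; edgeR, estimate ± SE, 3 libraries against 3). In A549 cells SRSF7 held 187, 174 and 149 CPM with clean air, 314, 378 and 279 with complete smoke, and 392, 396 and 347 CPM with filtered smoke, again without overlap. Its log2 changes there were 0.93 ± 0.16 (adjusted p = 0.00418) and 1.15 ± 0.16 (adjusted p = 0.00125). The call held under all 22 alternatives in A549 and all 23 in BEAS-2B cells, although with library size alone the BEAS-2B changes were 0.84 and 0.77.

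SRSF5 doubled in A549 cells. It held 166, 171 and 182 CPM with clean air, 353, 377 and 342 CPM with complete smoke, and 375, 377 and 376 CPM with filtered smoke. The exposed libraries lay in a narrow band above all clean air libraries, with log2 changes of 1.05 ± 0.12 (adjusted p = 0.00110) and 1.12 ± 0.12 (adjusted p = 0.000606), and both calls held under all 22 alternatives. In BEAS-2B cells SRSF5 held 230, 203 and 202 CPM with clean air, 248, 286 and 289 with complete smoke, and 198, 261 and 306 CPM with filtered smoke. The groups were apart with complete smoke and overlapped with filtered smoke, and neither change passed (0.37 ± 0.21, adjusted p = 0.162, and 0.27 ± 0.21, adjusted p = 0.293). With offsets for GC content, exonic length and gene span these became 0.71 (adjusted p = 0.0129) and 0.68 (adjusted p = 0.0150), and with library size alone -0.29 and -0.38.

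SRSF2, the SR protein that binds exonic enhancers and marks nuclear speckles, rose in A549 cells. Clean air libraries held 349, 393 and 371 CPM, complete smoke libraries 599, 685 and 568 CPM, and filtered smoke libraries 650, 746 and 692 CPM. The groups were apart, with log2 changes of 0.73 ± 0.14 (adjusted p = 0.00621) and 0.91 ± 0.14 (adjusted p = 0.00176), and both calls held under all 22 alternatives. In BEAS-2B cells SRSF2 held 476, 454 and 451 CPM with clean air, 510, 636 and 617 CPM with complete smoke, and 503, 646 and 746 CPM with filtered smoke. Every exposed library there lay above every clean air library, and neither change passed (0.35 ± 0.21, adjusted p = 0.200, and 0.46 ± 0.21, adjusted p = 0.0981). The filtered smoke change passed with the library number as a block (0.44, adjusted p = 0.0305), the DESeq2 Wald test (0.0317), the offsets (0.0289) and all 18 libraries in one fit (0.0326), and both changes turned negative with library size alone (-0.31 and -0.20). SRSF2 shares 1106 bp of its exons (36.7%) with MFSD11, which lies on the other strand. Counting used strand, and reads on the other strand of SRSF2 made up at most 0.323% of the reads of its 2 strands.

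SRSF6, an SR protein whose gene carries a known poison exon, had changes of opposite sign in the lines. It passed in neither by the main test, which leaves the library number out. In A549 cells it held 178, 204 and 233 CPM with clean air, 239, 308 and 357 CPM with complete smoke, and 222, 258 and 364 CPM with filtered smoke. In each of these groups library 1 was the lowest and library 3 the highest, and log2 changes were 0.56 ± 0.22 (adjusted p = 0.0693) and 0.46 ± 0.22 (adjusted p = 0.104). With the library number as a block, taken as pairing the libraries here, both passed (adjusted p = 0.00191 and 0.00547). Complete smoke also passed without filtered smoke library 3 (adjusted p = 0.0201), with upper-quartile scaling (0.0496), without the low-count filter (0.0233), with the DESeq2 Wald test (0.0466), with the offsets (0.0324) and on only the libraries compared (0.0291), and filtered smoke with the offsets (0.0291). In BEAS-2B cells SRSF6 held 217, 172 and 164 CPM with clean air, 124, 136 and 155 CPM with complete smoke, and 113, 143 and 147 CPM with filtered smoke. All 6 exposed libraries lay below the clean air libraries, with log2 changes of -0.41 ± 0.20 (adjusted p = 0.114) and -0.46 ± 0.20 (adjusted p = 0.0784). Library size alone gave -1.06 (adjusted p = 0.00930) and -1.10 (adjusted p = 0.00771), and filtered smoke also passed with the library number as a block (0.0282), the stricter filter (0.0489) and the DESeq2 Wald test (0.0417). The offsets reduced the changes in BEAS-2B cells to -0.22 (adjusted p = 0.329) and -0.13 (adjusted p = 0.579).

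SRSF3, the smallest of the classical SR proteins, did not pass in any of the 4 comparisons, and some alternatives passed in opposite directions. It held 330 to 388 CPM with clean air, 283 to 445 with complete and 333 to 484 CPM with filtered smoke in A549 cells (log2 0.11 ± 0.20, adjusted p = 0.705, and 0.21 ± 0.20, adjusted p = 0.413). In BEAS-2B cells it held 516 to 688, 638 to 733 and 568 to 612 CPM (0.24 ± 0.20, adjusted p = 0.340, and 0.02 ± 0.20, adjusted p = 0.946), and clean air library 1 was the high one of its group. Without that library and complete smoke library 3 the complete smoke change was 0.41 (adjusted p = 0.0462). With library size alone the BEAS-2B changes were -0.43 and -0.64, of which the second passed (adjusted p = 0.0141). With offsets for GC content, exonic length and gene span they were 0.68 and 0.59, which did not pass, and with the block as well they were 0.71 (adjusted p = 0.000804) and 0.63 (0.00161) and passed. In A549 cells block and offsets together gave 0.46 with filtered smoke (adjusted p = 0.0167). SRSF3 has 5 pseudogenes named after it, SRSF6 has 2 and SRSF2 has 1, so reads shared with those copies may be missing from these counts.

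SRSF11, a larger SR protein that meets U2AF at the splice acceptor, fell in BEAS-2B cells. It held 121, 194 and 193 CPM with clean air, 69.3, 75.5 and 108 CPM with complete smoke, and 53.2, 70.8 and 83.2 CPM with filtered smoke. Every exposed library lay below every clean air library, though clean air library 1 came close to the highest of them. Log2 changes were -1.01 ± 0.27 (adjusted p = 0.0185) and -1.29 ± 0.27 (adjusted p = 0.00753). The complete smoke call ended without complete smoke library 1 (-0.92), complete smoke library 2 (-0.93), clean air library 2 (-0.90) or clean air library 3 (-0.91), at adjusted p values from 0.0634 to 0.0694, and with the offsets (-0.29, adjusted p = 0.0739). The filtered smoke call held under all 23 alternatives, and the offsets reduced the change to -0.33. In A549 cells SRSF11 held 120 to 133 CPM with clean air, 104 to 145 with complete and 81.8 to 139 CPM with filtered smoke (-0.08 ± 0.21, adjusted p = 0.786, and -0.25 ± 0.21, adjusted p = 0.340). Without filtered smoke library 3, its highest library in that group, the filtered change was -0.51 (adjusted p = 0.0239). With the offsets the signs turned (0.29 and 0.25, not passing), and with the block and the offsets together both passed as higher (0.28, adjusted p = 0.0179, and 0.25, 0.0282). The direction of SRSF11 in A549 cells was therefore not settled.

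TRA2A and TRA2B are paralogs that bind GAA-rich exonic enhancers and are SR-like in carrying arginine and serine repeats at both ends. TRA2A fell in A549 cells. It held 138, 127 and 124 CPM with clean air, 82.2, 107 and 96.3 CPM with complete smoke, and 94.6, 98.3 and 93.1 CPM with filtered smoke. The groups were apart, and the falls passed at -0.45 ± 0.14 (adjusted p = 0.0318) and -0.44 ± 0.14 (adjusted p = 0.0230). The complete smoke call ended without any 1 of the clean air libraries, complete smoke library 1 or 2, or filtered smoke library 2 (log2 -0.35 to -0.54, adjusted p from 0.0510 to 0.132). The filtered smoke call ended without clean air library 1 or 2 or filtered smoke library 1 or 2 (-0.40 to -0.47, adjusted p from 0.0603 to 0.0801). Both ended without the low-count filter (adjusted p = 0.110 and 0.0989) and with all 18 libraries in one fit (0.0834 and 0.0608), and the complete smoke call with upper-quartile scaling (0.0507). In BEAS-2B cells TRA2A held 136, 139 and 152 CPM with clean air, 86.6, 103 and 113 CPM with complete smoke, and 73.2, 101 and 117 CPM with filtered smoke, with no overlap. These changes were as large as those in A549 cells and did not pass (-0.50 ± 0.21, adjusted p = 0.0790, and -0.55 ± 0.21, adjusted p = 0.0522). They passed with the offsets (-0.46, adjusted p = 0.0196, and -0.45, adjusted p = 0.0210), with all 18 libraries in one fit (0.0211 and 0.0143) and with library size alone (-1.17 and -1.21, adjusted p = 0.0148 and 0.0118). Complete smoke also passed without filtered smoke library 1 (-0.52, adjusted p = 0.0439), and filtered smoke with the library number as a block (-0.58, 0.00294), without complete smoke library 3 (-0.56, 0.0455) or filtered smoke library 3 (-0.69, 0.0415), with the stricter filter (0.0388), limma-voom (0.0402) and the DESeq2 Wald test (0.0297).

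TRA2B did not pass in any of the 4 comparisons. It held 218 to 244 CPM with clean air, 207 to 247 with complete and 226 to 247 CPM with filtered smoke in A549 cells, and 293 to 318, 298 to 355 and 271 to 330 CPM in BEAS-2B cells. The groups overlapped throughout, with log2 changes of 0.03 ± 0.13, 0.06 ± 0.13, 0.06 ± 0.18 and -0.04 ± 0.18 (adjusted p from 0.724 to 0.895). Its value depended on the offsets for GC content, exonic length and gene span, which were applied together and raised its change to 0.48 and 0.70 in A549 cells and 0.70 and 0.76 in BEAS-2B cells, of which the last 3 passed (adjusted p = 0.0243, 0.0215 and 0.0146). With the block as well, the first passed too (0.45, adjusted p = 0.0108). The annotated exons of TRA2B span 11769 bp, the longest of the 10, against a median of 4233 bp for protein-coding genes. Which of the 3 properties moved its value was not tested.

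In no comparison did both kinases pass. CLK1, which phosphorylates the arginine and serine tails, rose in A549 cells from 53.3, 68.0 and 57.7 CPM with clean air to 87.0, 139 and 161 CPM with complete smoke and 94.2, 119 and 161 CPM with filtered smoke. Library 1 was the lowest of each group and no exposed library fell to the clean air range. Log2 changes were 1.12 ± 0.25 (adjusted p = 0.0126) and 1.06 ± 0.25 (adjusted p = 0.00916). The complete smoke call ended without clean air library 1 (1.04) or complete smoke library 2 (1.06), both at an adjusted p of 0.0529, and the filtered smoke call held under all 22 alternatives. In BEAS-2B cells CLK1 held 74.1, 74.5 and 80.8 CPM with clean air, 81.7, 138 and 153 CPM with complete smoke, and 65.4, 154 and 178 CPM with filtered smoke. Library 1 of each smoke lay near or under the clean air level while the other 4 exposed libraries lay well above it, and the changes did not pass (0.70 ± 0.36, adjusted p = 0.138, and 0.79 ± 0.36, adjusted p = 0.0920). Without filtered smoke library 1 the filtered change was 1.10 (adjusted p = 0.0236), with the offsets the changes were 1.06 (adjusted p = 0.00883) and 1.35 (adjusted p = 0.00319), and with library size alone 0.05 and 0.15. The filtered change also passed with the library number as a block (0.66, adjusted p = 0.0201) and with all 18 libraries in one fit (0.0476).

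CLK4, a kinase of the same family and the least abundant of the 10 genes, fell in BEAS-2B cells. It held 22.0, 24.8 and 27.4 CPM with clean air, 13.2, 14.9 and 18.6 CPM with complete smoke, and 13.7, 17.4 and 18.9 CPM with filtered smoke. The groups were apart, and the changes passed at -0.67 ± 0.21 (adjusted p = 0.0303) and -0.57 ± 0.21 (adjusted p = 0.0450). These calls lay near the threshold. The complete smoke call ended without complete smoke library 1 or 2, clean air library 2 or 3, or filtered smoke library 2 (-0.59 to -0.67, adjusted p from 0.0547 to 0.110). The filtered smoke call ended without any 1 of the filtered smoke libraries, clean air library 2 or 3, or complete smoke library 2 (-0.46 to -0.66, adjusted p from 0.0548 to 0.149). Both ended without the low-count filter (adjusted p = 0.0702 and 0.150) and with the offsets, which gave -0.04 (adjusted p = 0.839) and 0.30 (adjusted p = 0.144). With the block and the offsets together filtered smoke passed as higher (0.31, adjusted p = 0.0428). The filtered smoke call ended too with upper-quartile scaling (0.0564) and counts that ignore strand (0.0501). In A549 cells CLK4 held 21.5, 26.1 and 24.7 CPM with clean air, 15.4, 18.5 and 23.5 CPM with complete smoke, and 13.2, 18.5 and 21.7 CPM with filtered smoke. The highest exposed libraries reached into the clean air range, and the changes did not pass (-0.33 ± 0.21, adjusted p = 0.242, and -0.44 ± 0.22, adjusted p = 0.117; -0.08 and -0.02 with the offsets). With the library number as a block they did (-0.35, adjusted p = 0.0483, and -0.46, adjusted p = 0.0126), and filtered smoke also without filtered smoke library 3 (-0.60, adjusted p = 0.0324). With the block, 8321 genes passed with complete smoke in A549 cells against 4951 without it.

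Ratios of counts within a library need no scaling between libraries and set related genes side by side. The pairs were chosen after the values were seen, and the ratios are given without a test. CLK1 had 2.33 to 2.60 times the counts of CLK4 with clean air in A549 cells, 5.66 to 7.55 times with complete smoke and 6.42 to 7.45 times with filtered smoke. In BEAS-2B cells the ratio was 2.95 to 3.36, 6.17 to 9.27 and 4.79 to 9.40. SRSF7 had 0.450 to 0.483 times the counts of SRSF3 with clean air in A549 cells and 0.719 to 1.04 times after smoke, and in BEAS-2B cells 0.336 to 0.339 and 0.772 to 0.903 times. The 3 clean air libraries of BEAS-2B cells thus gave nearly 1 value for this pair, including library 1, in which both genes were high. TRA2B had 1.73 to 1.77 times the counts of TRA2A with clean air and 2.15 to 3.01 times after smoke in A549 cells, and 2.09 to 2.18 and 2.81 to 3.71 times in BEAS-2B cells. SRSF5 had 0.781 to 0.928 times the counts of SRSF6 with clean air and 0.958 to 1.69 times after smoke in A549 cells, and 1.06 to 1.23 and 1.74 to 2.11 times in BEAS-2B cells. For these 4 pairs no exposed library reached the clean air range of its line. A ratio shows unequal change and does not say which gene of a pair moved.

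**Figure D3:**
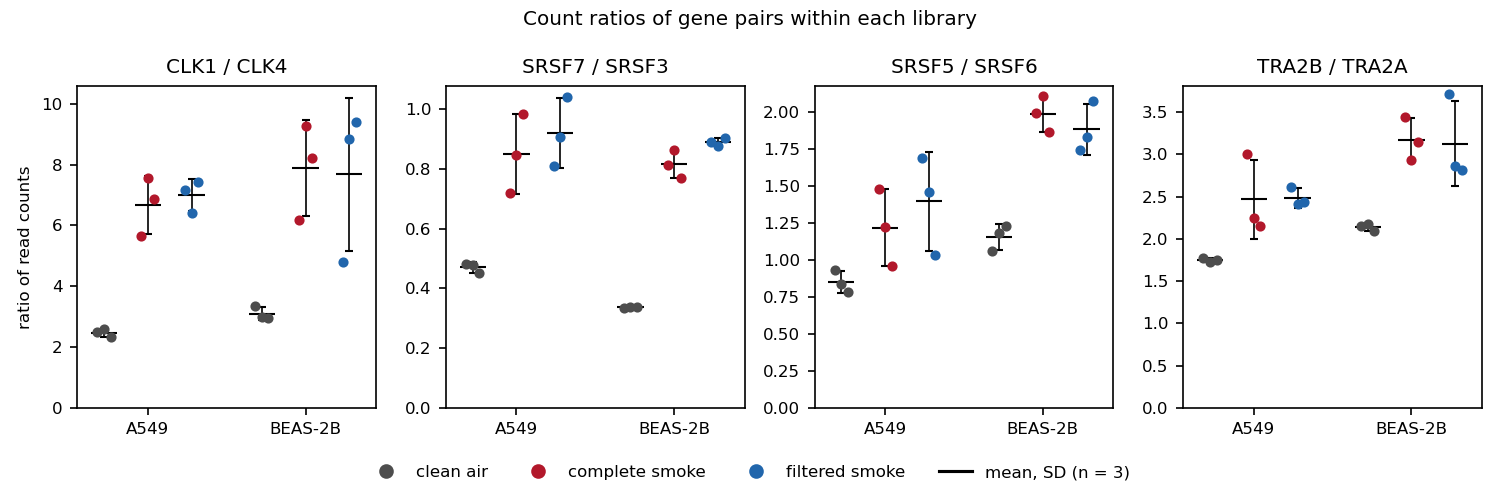
Ratio of the read counts of 2 genes within each library (linear axes from 0), by line and exposure, with mean and SD (n = 3). Points from left to right are clean air (grey), complete (red) and filtered smoke (blue). The CLK1 to CLK4 ratio lies between 2.33 and 3.36 with clean air and between 4.79 and 9.40 after smoke.

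Complete and filtered smoke were not told apart by the test of any of the 10 genes. None passed in either line, and 0% of all genes did, by edgeR (0 of 15244 in A549 and 0 of 16356 in BEAS-2B cells). At an unadjusted p under 0.05 there were 236 and 222 genes, none of them among the 10, and the DESeq2 Wald test passed 3 and 0 genes and limma-voom 0 in both. Log2 differences of complete minus filtered smoke ranged from -0.23 ± 0.16 (SRSF7) to 0.17 ± 0.21 (SRSF11) in A549 cells and from -0.10 ± 0.21 (SRSF2) to 0.28 ± 0.27 (SRSF11) in BEAS-2B cells. The 2 smoke groups overlapped for every gene but SRSF3 in BEAS-2B cells, at 638 to 733 CPM with complete and 568 to 612 CPM with filtered smoke (0.22 ± 0.20). The unadjusted p of SRSF3 there was 0.290 (edgeR). The share of all genes without overlap was not computed for this comparison, so the separation of SRSF3 is not read as a difference. With 3 libraries a group, differences well beyond 1 SE can also go undetected. Against clean air, the SRSF6 change of 0.56 ± 0.22 with complete smoke in A549 cells did not pass. That no gene passed therefore does not show that the 2 smokes act alike.

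Responses of the lines were compared by an interaction term, fitted to the 18 libraries together and signed so that a negative value means a lower response in BEAS-2B cells. None of the 10 genes passed, where 1.74% of 17703 genes passed for complete and 0.825% for filtered smoke. At an unadjusted p under 0.05 there were 4 of the 10 for complete (SRSF5, SRSF6, SRSF7 and SRSF11) and 3 for filtered smoke (SRSF5, SRSF6 and SRSF11), among 3070 and 2449 genes in all. The widest differences were those of SRSF6 (-0.98 ± 0.28, adjusted p = 0.0932, and -0.90 ± 0.28, adjusted p = 0.154), SRSF11 (-0.96 ± 0.36, adjusted p = 0.181, and -1.04 ± 0.36, adjusted p = 0.188) and SRSF5 (-0.68 ± 0.22, adjusted p = 0.135, and -0.84 ± 0.22, adjusted p = 0.0906). SRSF7 differed by 0.59 ± 0.24 (adjusted p = 0.218) and 0.29 ± 0.24 (adjusted p = 0.610). A rise in one line that passed and a change in the other that did not are therefore not shown to differ. SRSF11 passed for complete smoke without clean air library 1 of BEAS-2B cells (-1.18, adjusted p = 0.0499) and with the offsets (-0.63, 0.0381). With that library and complete smoke library 3 left out together, SRSF11 (-1.35, adjusted p = 0.0128), SRSF6 (-0.94, 0.0405) and SRSF7 (0.76, 0.0387) passed for complete smoke, and SRSF11 (-1.26, 0.0331) and SRSF5 (-0.83, 0.0486) for filtered smoke. By the DESeq2 Wald test SRSF5 (adjusted p = 0.0175) and SRSF6 (0.0211) passed for complete smoke and SRSF5 (0.00101) and SRSF6 (0.0355) for filtered smoke.

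**Figure D4:**
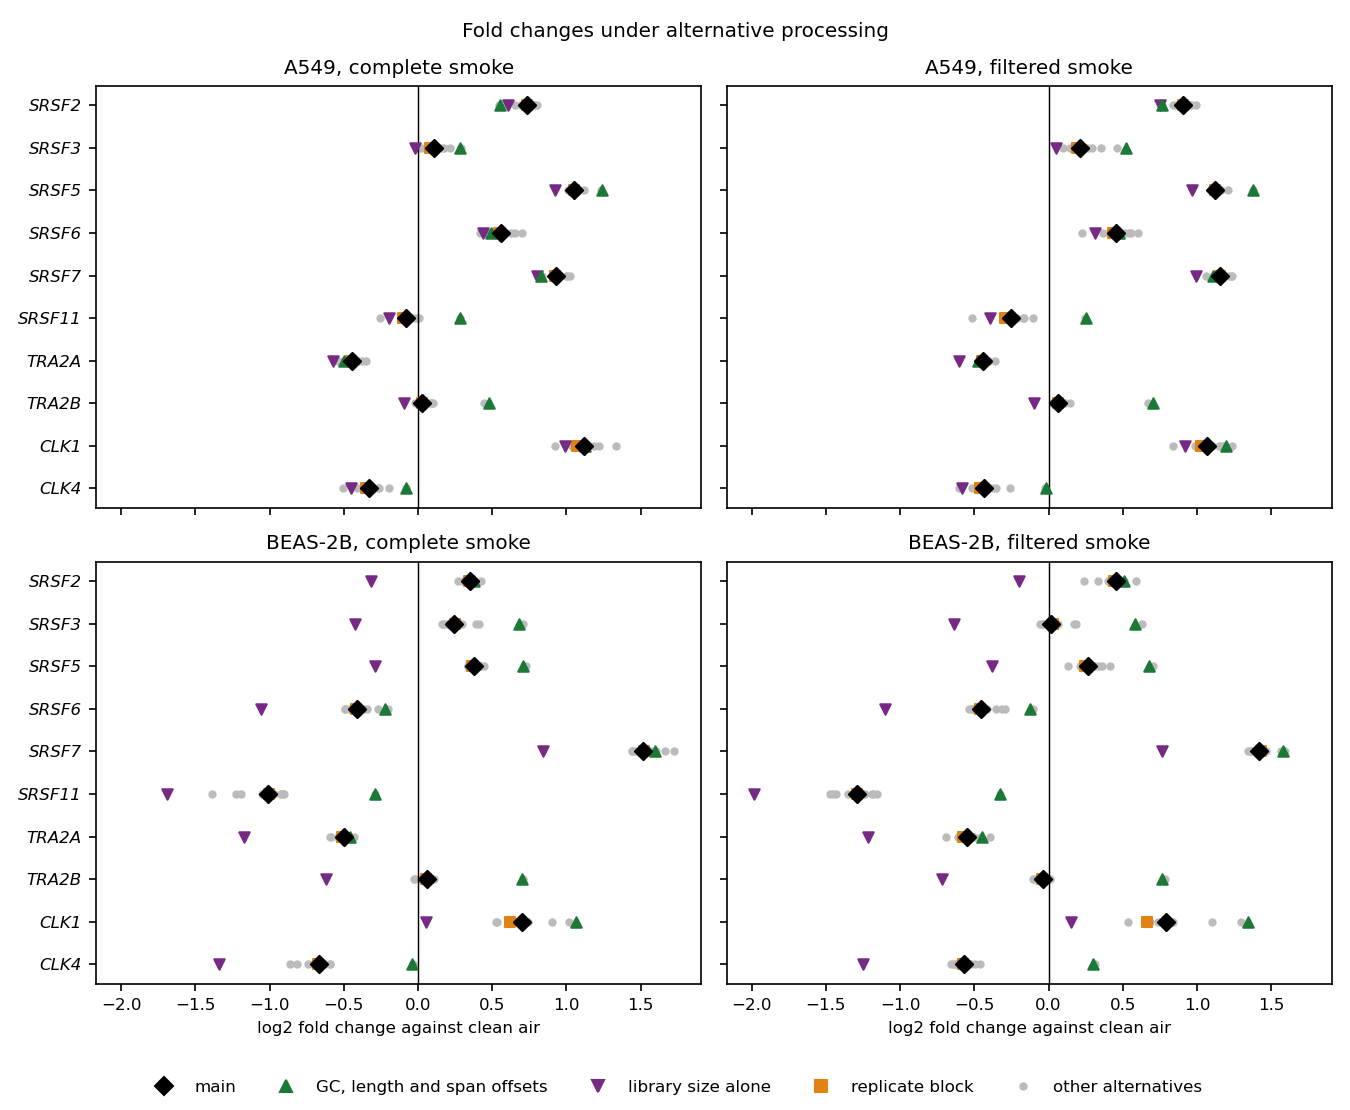
Log2 fold change of each gene against clean air under the alternatives tried, in the 4 comparisons. Black diamonds are the main values, green triangles the offsets for GC content, exonic length and gene span, purple triangles library size alone, orange squares the library number as a block, and grey points the others. Offsets move TRA2B, SRSF11 and CLK4 upwards (TRA2B from -0.04 to 0.76 with filtered smoke in BEAS-2B cells), and library size alone moves all 10 genes down in BEAS-2B cells, SRSF7 from 1.52 to 0.84 with complete smoke.

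The rest of the splicing machinery was described through lists of related genes, by counts. In the order complete and filtered smoke in A549 cells and then in BEAS-2B cells, 15.6%, 23.1%, 21.5% and 23.6% of all genes rose and 16.9%, 23.5%, 19.5% and 24.9% fell, with medians of 0.02, 0.01, -0.06 and -0.07, and each list below is to be read beside these. Of 6 other SR proteins, 0 rose and 1 fell with each smoke in A549 cells, and 1 rose and 3 fell with each in BEAS-2B cells, with list medians of 0.05, 0.03, -0.52 and -0.45 on the log2 scale. SRSF1, the founding SR protein, fell in all 4 comparisons, from 159 ± 14.0 to 115 ± 13.7 CPM with complete smoke in A549 cells (-0.47 ± 0.16, adjusted p = 0.0492) and from 119 ± 17.997 to 28.3 ± 3.35 CPM with filtered smoke in BEAS-2B cells (-2.08 ± 0.37, adjusted p = 0.00474; mean ± SD, n = 3). The latter held under all 23 alternatives and the former ended under 12 of 22. The other falls in BEAS-2B cells included SRSF4 with complete smoke (-0.54 ± 0.15, adjusted p = 0.0222) and SRSF10 with filtered smoke (-0.85 ± 0.25, adjusted p = 0.0215), and neither passed with the offsets (0.02 and -0.07). These calls ended under 5 and 6 of 23 alternatives, and that of SRSF4 also changed sign.

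None of the 8 tested genes for other SR kinases and SR protein import rose in any comparison, and 3, 4, 5 and 4 fell in that order, with medians of -0.39, -0.47, -0.88 and -0.59. SRPK3, the ninth of the list, was under the count minimum. DYRK1A, a kinase that also phosphorylates splicing factors, fell in A549 cells from 59.9 ± 0.858 to 18.5 ± 4.92 CPM with complete (-1.70 ± 0.27, adjusted p = 0.00313) and to 15.7 ± 5.67 CPM with filtered smoke (-1.93 ± 0.27, adjusted p = 0.00131). It fell in BEAS-2B cells too (-1.47 ± 0.46, adjusted p = 0.0314, and -2.04 ± 0.47, adjusted p = 0.00980). The offsets reduced these 4 changes to -0.73, -0.83, -0.75 and -0.80, each still past the threshold. The complete smoke call in BEAS-2B cells ended under 6 of 23 alternatives, on only the libraries compared and without complete smoke library 1 or 2, clean air library 2 or 3, or filtered smoke library 2 (adjusted p up to 0.0998). SRPK2, which phosphorylates SR proteins in the cytoplasm, fell in A549 cells (-0.77 ± 0.16, adjusted p = 0.00843, and -0.67 ± 0.16, adjusted p = 0.00828), and with the offsets the changes were -0.29 and -0.22 and did not pass. PRPF4B fell in BEAS-2B cells (-1.28 ± 0.38, adjusted p = 0.0252, and -1.33 ± 0.38, adjusted p = 0.0193), and each call ended under 4 of 23 alternatives, all of them with a library left out.

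Among 18 SR-related and U1 or U2 partner proteins, 3 rose and 1 fell with complete and 4 rose and 3 fell with filtered smoke in A549 cells, and 1 rose and 8 fell and then 1 rose and 9 fell in BEAS-2B cells (medians -0.13, -0.10, -0.50 and -0.51). RSRP1, an arginine and serine rich protein, rose in A549 cells from 38.9 ± 5.54 to 124 ± 38.9 CPM with complete (1.67 ± 0.27, adjusted p = 0.00327) and to 137 ± 36.9 CPM with filtered smoke (1.82 ± 0.27, adjusted p = 0.00158), under all 22 alternatives. RBM25, a U1-associated regulator, fell from 178 ± 5.15 to 99.2 ± 20.1 CPM with complete smoke in A549 cells (-0.84 ± 0.21, adjusted p = 0.0179) and from 141 ± 26.0 to 50.3 ± 15.3 CPM in BEAS-2B cells (-1.49 ± 0.32, adjusted p = 0.00824). With the offsets these were -0.24 (adjusted p = 0.107) and -0.72 (adjusted p = 0.0111). SREK1, a splicing regulatory protein with an SR-like tail, fell in BEAS-2B cells by 1.86 with complete (SE 0.46, adjusted p = 0.0134) and 2.22 with filtered smoke (SE 0.46, adjusted p = 0.00728) on the log2 scale, and the first call ended without complete smoke library 2. SRRM2, a large speckle scaffold, fell with filtered smoke in both lines (-1.20 ± 0.30, adjusted p = 0.0111, and -1.88 ± 0.47, adjusted p = 0.0127).

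Of 17 hnRNP proteins, which often oppose SR proteins at splice sites, 3 rose and 0 fell with each smoke in A549 cells, 0 rose and 2 fell with complete and 1 rose and 1 fell with filtered smoke in BEAS-2B cells (medians -0.03, 0.01, -0.10 and -0.02). HNRNPDL rose in A549 cells from 204 ± 6.76 to 326 ± 68.5 CPM with complete (0.68 ± 0.18, adjusted p = 0.0201) and to 367 ± 52.1 CPM with filtered smoke (0.84 ± 0.18, adjusted p = 0.00568). The first call ended under 5 of 22 alternatives and the second under none. Of 14 nonsense-mediated decay factors, which remove the poison exon transcripts of SR genes, 1 rose and 5 fell with complete and 2 rose and 5 fell with filtered smoke in A549 cells, and 1 rose and 2 fell and then 1 rose and 4 fell in BEAS-2B cells (medians -0.09, -0.24, -0.37 and -0.27). EIF4A3, the helicase of the exon junction complex, rose in A549 cells (0.44 ± 0.13 with each smoke, adjusted p = 0.0291 and 0.0210), and these calls ended under 8 and 7 of 22 alternatives.

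For each of the 10 genes the gene most like it was sought among 8868 protein-coding genes, by Pearson's r of log2 CPM over the 18 libraries, centred within a line. SRSF7 was most like YRDC (r = 0.990), SRSF11 most like TMEM30A (0.990), CLK1 most like EIF4A2 (0.972) and CLK4 most like ZNF75D (0.963). SRSF2 and SRSF5 had the same nearest gene, CHCHD7 (0.961 and 0.953). TRA2A was nearest to PGBD2 (0.957), SRSF3 to MED4 (0.917), SRSF6 to WTAP (0.912) and TRA2B to NOL11 (0.899). These libraries share their exposures and depths, so the correlations describe a common pattern and carry no test.

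Each value above is a sum over all transcripts of a gene. The annotation (GENCODE v29) lists transcripts marked for nonsense-mediated decay for all 10 genes, from 1 in SRSF5, SRSF6, TRA2A and TRA2B to 6 in SRSF7, and transcripts with retained introns for 8, with 8 each in SRSF5, TRA2B and CLK1 and 7 in CLK4. A gene count does not separate the protein-coding form from these, so a higher count of SRSF7 or CLK1 RNA is not a measure of its protein.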

How the data were processed

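The deposited files hold read counts per gene that the authors made with STAR 2.7.10b on GRCh38, per the submitters' processing notes. The annotation release is not given in the sources used here. Of 3 count columns the strand with 11.7 to 17.1 times the counts of the other was used, without 4 summary lines, and low depth limits CLK4 most. Symbols came from a table of gene names for 62625 identifiers, and positions and lengths from GENCODE v29. Genes passing filterByExpr were scaled by TMM and tested with edgeR 4.0.16 (R 4.3.3) quasi-likelihood tests, robust, on the 9 libraries of a line, with interaction terms from all 18 libraries. These main tests held no term for the library number, which entered as a block only among the alternatives. Standard errors came from the test statistic. The library numbers in the labels were taken as pairs in A549 cells, where the deviations of same-numbered libraries correlated in all 9 pairs (r from 0.220 to 0.798), and in BEAS-2B cells for clean air with filtered smoke (0.159 to 0.581) and complete with filtered smoke (0.293 to 0.666), not for clean air with complete smoke (-0.134 to 0.652). Between different numbers r reached 0.340 in A549 and 0.476 in BEAS-2B cells. Clean air library 2 of BEAS-2B cells correlated more with filtered smoke library 3 (0.434) than with filtered smoke library 2 (0.159). Offsets were splines of GC content, exonic length and gene span (mgcv 1.9.3), covering 97.7% (A549) and 97.0% (BEAS-2B) of tested genes. Other alternatives were other scalings and filters, DESeq2 1.42.0, limma-voom (limma 3.58.1), the block, strand, the libraries fitted and each library left out. The fits were tested on simulated data. Members and lists were chosen with earlier results of these data known. From the lists, the text names genes among the 2 passing genes with the largest change in each direction per list. One gene that this rule names is not reported here. Motifs were searched as exact letters.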

Additional observations from a re-analysis of the deposited data

Results flagged for a closer look

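SRSF6 differed between the lines with complete smoke by -0.98 on the log2 scale (BEAS-2B minus A549). All 3 exposed libraries lay above the clean air libraries in A549 cells and below them in BEAS-2B cells, while the interaction test did not pass (adjusted p = 0.0932, edgeR). With the offsets the change in BEAS-2B cells was -0.22 (adjusted p = 0.329), and the difference between the lines was -0.77 (adjusted p = 0.0665).

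Reads on the other strand of a gene are left out of the comparisons. Their share of the reads of both strands was compared between each exposed group and the clean air libraries of its line. Only exposed groups with at least 10 such reads in each library were considered. Every exposed library lay above every clean air library in all 4 exposed groups for SRSF5, and in 1 each for SRSF3 and CLK1. The minimum was not asked of clean air libraries, which held 1 to 4 such reads for CLK1 and 7 to 14 for SRSF5 in BEAS-2B cells. For SRSF3 in A549 cells they held 2 to 14, so these shares rest on few reads. The share of all genes that meet this rule was not computed. For SRSF5 the mean share was 1.12% with complete and 1.12% with filtered smoke in A549 cells against 0.779% with clean air, and 0.273% and 0.225% in BEAS-2B cells against 0.123%. For SRSF3 it was 0.224% with complete smoke in A549 cells against 0.128% with clean air, while filtered smoke there gave 0.122%. For CLK1 it was 0.343% with filtered smoke in BEAS-2B cells against 0.0699%, while in A549 cells the exposed libraries (0.281% to 0.888%) overlapped those of clean air (0.213% to 0.454%). Over all genes the other strand took a mean of 5.66% in the clean air libraries of A549 cells, 5.96% after complete and 6.12% after filtered smoke, and in BEAS-2B cells 6.71%, 7.44% and 7.39%. The part of this in the shares of the 3 genes was not tested.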

How the results depend on the processing

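Of 1110 values of the 10 genes under alternatives, 947 kept their direction and their side of the threshold, 95 newly passed, 39 no longer passed and 29 changed sign. The share of all genes that passed is given in brackets. In A549 cells 5 of the 10 passed with each smoke (32.5% and 46.7%), and 8 (48.1%) and 9 (55.6%) with the replicate block and the offsets together. The block alone gave 7 with each smoke (54.6% and 61.7%), and leaving out a library gave 3 to 6 (9.11% to 44.9%) and 4 to 7 (25.7% to 57.7%). In BEAS-2B cells 3 passed with each smoke (41.0% and 48.6%). Complete smoke gave 5 with library size alone (51.1%), 6 with the replicate block (63.1%), 5 with the offsets (45.6%), 8 with both (59.9%) and 1 to 4 with a library left out (17.4% to 53.4%). Filtered smoke gave 7 with library size alone (55.5%), 5 with the stricter filter (56.6%), 6 with the DESeq2 Wald test (54.7%), 7 with the block (66.9%), 7 with the offsets (48.5%), 9 with both (62.7%) and 6 with all 18 libraries in one fit (53.6%). Member counts under the block rose along with these shares. With complete smoke in BEAS-2B cells 2 of 3 same-numbered pairs correlated, so the numbers are not taken as pairs there; the block let CLK1 (0.62, adjusted p = 0.0281), TRA2A (-0.51, 0.00636) and SRSF6 (-0.42, 0.0445) pass. Between the lines 0 passed for each smoke (1.74% and 0.825%). Complete smoke gave 2 with library size alone (8.87%), 2 with the DESeq2 Wald test (5.08%), 4 with the block (20.0%), 1 with the offsets (4.4%), 4 with both (25.2%), 3 (21.5%) without clean air library 1 and complete smoke library 3 of BEAS-2B cells, and 0 to 1 with a library left out. Filtered smoke gave 2, 2, 3 and 4 with library size alone, the DESeq2 Wald test, the block and block with offsets (4.64%, 3.64%, 15.5% and 20.5%), 1 with the stricter filter (1.17%) and 2 without those 2 libraries (5.16%). Complete against filtered smoke gave 0 of the 10 genes under every alternative.

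Changes of sign, in log2, were mostly in values near 0. With the offsets SRSF11 was 0.29 and 0.25 in A549 cells (0.28 and 0.25 with the block too), and with filtered smoke in BEAS-2B cells CLK4 was 0.30 (0.31), TRA2B 0.76 (0.78) and HNRNPH1 0.051 (0.071). With complete smoke there SRSF4 was 0.022 (0.042) and HNRNPA0 0.0083. With library size alone SRSF3 was -0.021 with complete smoke and TRA2B -0.10 and -0.10 with complete and filtered smoke in A549 cells. In BEAS-2B cells SRSF2 was -0.31 and -0.20, SRSF3 -0.43 and -0.64, SRSF5 -0.29 and -0.38, and TRA2B -0.62 with complete smoke. With filtered smoke there SRSF3 was -0.042 with the stricter filter and TRA2B 0.0085 with counts that ignore strand, and TRA2B was -0.028 with complete smoke without clean air library 1 and complete smoke library 3. With a library left out, SRSF11 ranged from -0.26 to 0.0076, SRSF3 from -0.0012 to 0.29 and TRA2B from -0.022 to 0.10 (complete smoke, A549), TRA2B from -0.024 to 0.11 (complete smoke, BEAS-2B), SRSF3 from -0.060 to 0.17 and TRA2B from -0.11 to 0.0076 (filtered smoke, BEAS-2B). The cause was not tested, beyond the construction of each alternative.

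Over all genes, counts that passed ranged over alternatives from 1422 to 8321 (main 4951) and 4006 to 9406 (7112) in A549 cells, 2916 to 10616 (6704) and 3652 to 10948 (7947) in BEAS-2B cells, 0 to 19 and 0 to 2 for complete against filtered smoke, and 87 to 4470 (308) and 47 to 3632 (146) between the lines. With library size alone 2.86% and 3.41% of the line differences were higher in BEAS-2B cells, against 32.5% and 37.7%. Depth limits CLK4 most, with 180 to 1189 counts per library.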
